A study of Mus musculus with 10 samples.

Results

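Mitochondrial ribosomal protein genes were examined in the gastrocnemius, a calf muscle of mainly fast fibres, of 10 mice on Affymetrix Mouse Gene 2.0 ST arrays. Members were taken by symbol: every gene whose probe set carried a single symbol beginning with Mrpl or Mrps and a digit, with pseudogenes left out and the brightest probe set kept for each gene. This gave 71 of the 22180 genes on the array, 43 Mrpl genes named for the large ribosomal subunit and 28 Mrps genes named for the small subunit. The 7 symbols Mrpl30, Mrpl33, Mrpl41, Mrpl43, Mrpl44, Mrpl53 and Mrps6 occurred on probe sets shared with other genes and were not analysed here. All mice were male and of the outbred NMRI stock. The 5 control mice received a basal diet low in carnitine (below 5 mg per kg), to which 1000 mg L-carnitine per kg was added for the 5 carnitine mice. The study fed 60 mice from about 3 weeks of age, kept 5 to a cage, and killed 10 per diet at 9, 15 and 18 months, and the labels do not give the age of the array mice. Each array held the RNA of 1 mouse, so p-values measure the spread between mice of a diet, which may include that of age and cage. An age or cage that differed between the diets could not be told apart from the diet.

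The mitochondrial ribosome translates the few messenger RNAs encoded by mitochondrial DNA, all of which specify subunits of the respiratory chain and ATP synthase. Its RNAs come from the mitochondrial genome, while all its proteins are encoded in the nucleus, made in the cytosol and imported. Part of these proteins descend from bacterial ribosomal proteins and part are found only in mitochondria. Slow muscle fibres, marked by the myosin heavy chain gene Myh7, are rich in mitochondria, and L-carnitine is the carrier with which long-chain fatty acids enter mitochondria. Symbols do not always give the place of the protein: by structure, Mrps18a and Mrps30 lie in the large subunit, and the Mrps36 product belongs to the 2-oxoglutarate dehydrogenase complex.

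Expression values are deposited log2 levels, and a difference of 1 is a doubling. Fibre markers marked every array as skeletal muscle, with a mean level over 9 genes of 13.07 to 13.21. Control mouse 5 stood apart. The interquartile range of its array was 2.2 log2 units, where the other 9 arrays had 2.39 to 2.59. Its mean over 5 endothelial markers was 8.05 against 8.4 to 8.93, its mean over 5 macrophage markers was the highest at 6.71, and its mean over 5 adipocyte markers was 6.4, shared with control mouse 2. The part of these differences in the results below was not tested. In whole muscle, fewer cells of a type and less RNA per cell cannot be told apart. Of the 71 genes, Mrps36 (5.62) and Mrpl27 (5.67) had means under 5.8, the median level of a probe set, where signals are weak.

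Promoters are shown for 5 of the genes described below. Mrpl16 and Mrpl49 were taken for the diet comparison, Mrps18a and Mrpl34 for the slope on Myh7. Mrpl14 was taken for the difference in its Myh7 slope between the diets. Each runs 5′ to 3′ on the strand of the gene, from 100 bases before the transcription start to 25 bases after it, and comes from RefSeq on mouse build GRCm38.p6. Capitals mark matches on either strand to the motifs of 3 transcription factors known as regulators of nuclear genes for mitochondrial proteins: CCGGAAG for the ETS family that includes GABPA, AAGATGGC for YY1, and the consensus of NRF1, which is given by name.
Mrpl16: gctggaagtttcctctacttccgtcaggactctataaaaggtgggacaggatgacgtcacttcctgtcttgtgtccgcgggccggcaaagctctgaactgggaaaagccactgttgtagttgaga
Mrpl49: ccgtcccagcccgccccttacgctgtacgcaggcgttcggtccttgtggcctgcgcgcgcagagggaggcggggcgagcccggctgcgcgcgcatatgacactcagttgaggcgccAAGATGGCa
Mrps18a: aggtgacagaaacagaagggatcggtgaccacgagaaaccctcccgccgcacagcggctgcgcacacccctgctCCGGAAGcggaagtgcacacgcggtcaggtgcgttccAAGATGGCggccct
Mrpl34: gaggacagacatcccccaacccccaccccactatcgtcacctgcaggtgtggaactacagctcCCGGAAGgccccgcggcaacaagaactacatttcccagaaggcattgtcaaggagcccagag
Mrpl14: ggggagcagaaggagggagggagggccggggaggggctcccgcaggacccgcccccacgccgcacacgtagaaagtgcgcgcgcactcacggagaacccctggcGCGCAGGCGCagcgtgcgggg
The Mrpl16 window (chr19:11770315-11770439, plus strand) held none of the motifs. That of Mrpl49 (chr19:6057731-6057855, minus strand) held the YY1 motif, that of Mrps18a (chr17:46110904-46111028, plus strand) the ETS and the YY1 motif, that of Mrpl34 (chr8:71464826-71464950, plus strand) the ETS motif, and that of Mrpl14 (chr17:45686249-45686373, plus strand) the NRF1 motif. In the whole window, from 250 bases before the start to 50 after it, 62 of the 71 genes were matched. The ETS motif was found in 23 of these 62 (37.1%) against 12.7% of 16990 genes, the YY1 motif in 12 (19.4%) against 3.64%, and the NRF1 motif in 11 (17.7%) against 7.24%. Any of the 3 stood in 38 promoters (61.3%) against 20.9% of all genes. A match is a description of the letters and not evidence of binding. The genes with an NRF1, ETS or YY1 motif had median diet differences of 0.06, 0.092 and 0.083, and those without it 0.088, 0.078 and 0.087.

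The first comparison asks whether mitochondrial ribosomal protein transcripts differed between the diets. Most averaged slightly more in carnitine muscle, but no single gene passed the adjusted threshold, and the shift was small. Of the 71 genes, 63 had a positive difference (carnitine minus control), which is 88.7%, against 47.5% of all genes tested and 62.5% of the 12929 genes above the median probe set level. The median difference was 0.088 on the log2 scale, against −0.008 over all genes and 0.044 over those above that level, and single genes ran from −0.17 to 0.40. None of the 71 passed an adjusted p of 0.05 in limma, and the smallest adjusted p was 0.712. Over all genes 0% passed. An unadjusted p below 0.05 was found for 5 of the 71 on the higher side (7.04% of members, against 3.14% of all genes) and for 0 on the lower side (3.83% of all genes). Of the 12929 genes above the median probe set level, 619 had such a p on the higher side and 229 on the lower. The standard error of a gene's difference had a median of 0.109 and the 95% interval a median half-width of 0.233, so differences as small as the median could not be resolved gene by gene. The member count of 5 was 11 without control mouse 1, 3 without carnitine mouse 3, 2 without carnitine mouse 4 and 8 without carnitine mouse 5. The share of all genes in these fits is not given here.

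The shift depended on control mouse 5 and on the scaling. Without that mouse the median difference was 0.029 and 50 of the 71 genes were positive, against 0.003 and 51.0% over all genes. The median difference of the 71 was 0.138 without control mouse 1 and 0.14 without carnitine mouse 5. When the arrays were brought together by cyclic loess, the median was 0.026 and 41 of the 71 were positive, against 50.7% of all genes. After median centring it was 0.138 with 67 positive, while the share of all genes with a positive difference went from 47.5% to 62.0%.

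**Figure D1:**
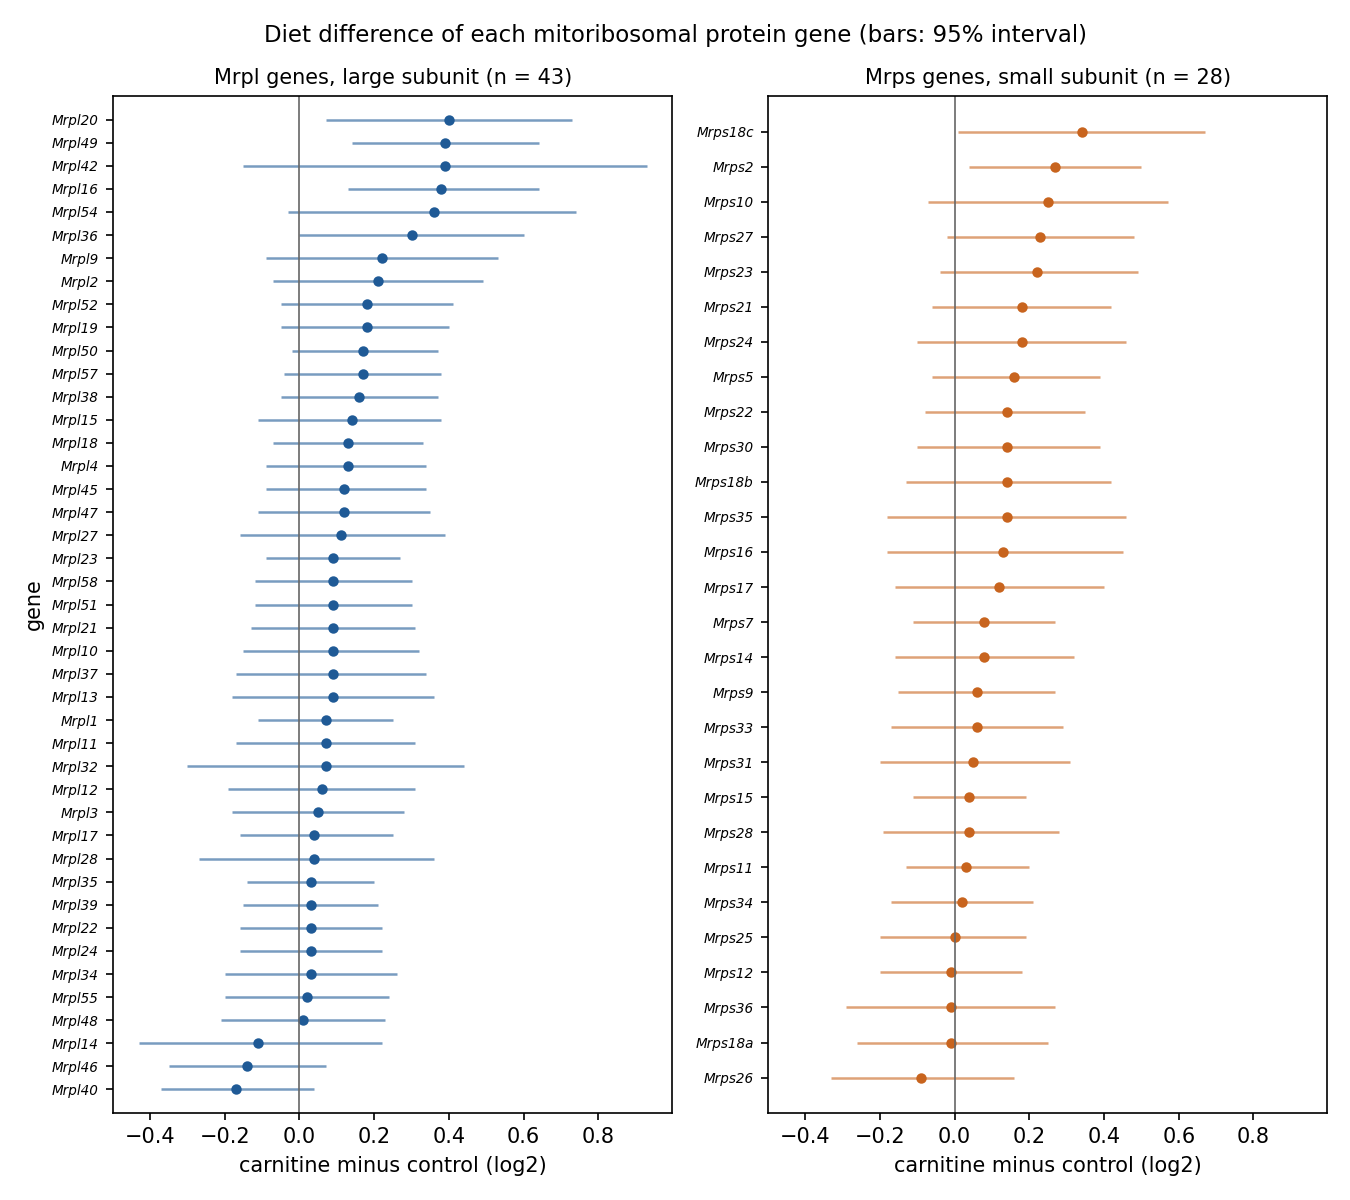
Carnitine minus control on the log2 scale (x axis) for each of the 71 genes, with 95% intervals from limma, large-subunit and small-subunit symbols apart. Most points lie right of 0, from −0.17 to 0.40, and most intervals include 0.

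The averages over the 71 genes show how the mice compared. In the control mice 1 to 5 the mean level over the genes was 8.08, 7.92, 7.97, 7.95 and 7.63. In the carnitine mice 1 to 5 it was 8.05, 8.03, 8.09, 8.08 and 7.87. The diets overlapped, since every control mouse but mouse 5 lay within the carnitine range. Control mice averaged 7.91 ± 0.17 and carnitine mice 8.02 ± 0.09 (SD, n = 5 each). After cyclic loess, control mouse 5 moved from 7.63 to 7.82, and the difference between the diets from 0.11 to 0.04.

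Control mouse 5 had the lowest value of all 10 mice in 49 of the 71 genes (69.0%), against 22.5% of all genes and 35.7% of those above the median probe set level. The median difference of this mouse from the other controls was −0.34 over the 71 genes and −0.11 over the genes above that level. Carnitine mouse 5 was the lowest carnitine mouse in 51 genes (71.8%, against 22.5% of all genes), with a median difference of −0.2 from the other carnitine mice. Control mouse 1 was the highest of the 10 mice in 15 genes, carnitine mouse 3 in 16 and carnitine mouse 4 in 12. The spread of the means within the control diet, from 7.63 to 8.08, was wider than the difference of 0.11 between the diets.

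**Figure D2:**
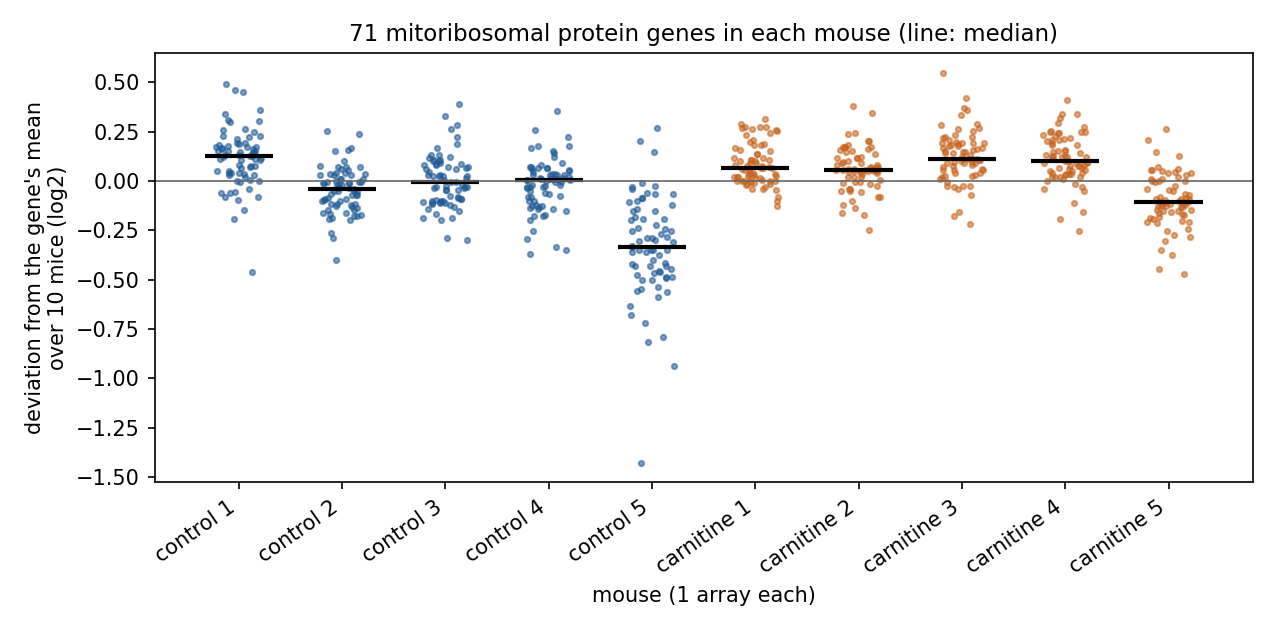
Deviation of each of the 71 genes from its mean over the 10 mice (y axis, log2 scale), by mouse (x axis), with a point per gene and a line at the median. The median is −0.33 in control mouse 5 and −0.11 in carnitine mouse 5, and between −0.04 and 0.13 in the other 8 mice.

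Both subunits gave like values. Of the 43 Mrpl genes, 40 were positive with a median of 0.088 and 3 had an unadjusted p below 0.05, and of the 28 Mrps genes, 23 were positive with a median of 0.1 and 2 had such a p. Their mean levels differed between the diets by 0.12 and 0.11, and without control mouse 5 the medians were 0.03 and 0.028. With each protein placed by structure, 41 of 45 large-subunit genes were positive (median 0.088) and 22 of 25 small-subunit genes (median 0.122). The genes with a bacterial homologue had 41 of 43 positive (median 0.086), and those found only in mitochondria had 22 of 27 (median 0.122).

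Mrpl16, the homologue of a bacterial protein near the peptidyl transferase centre, was the 1 member whose diets did not overlap. Levels were 8.35, 8.35, 8.45, 8.15 and 7.77 in control mice 1 to 5, and 8.65, 8.75, 8.57, 8.55 and 8.46 in carnitine mice 1 to 5. Every carnitine mouse lay above every control mouse, the closest being carnitine mouse 5 at 8.46 and control mouse 3 at 8.45. The difference was 0.38 (SE 0.12, 1.30-fold), with an unadjusted p of 0.00648 and an adjusted p of 0.712 in limma. Over all genes, 0.505% did not overlap with carnitine higher and 0.609% with carnitine lower.

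Mrpl49, a large-subunit protein found only in mitochondria, had the smallest unadjusted p among the members. Its levels were 7.74, 8.04, 7.70, 7.52 and 7.47 in control and 7.91, 8.09, 8.25, 8.23 and 7.93 in carnitine mice. Control mouse 2 reached the carnitine range, and the other 4 controls lay below it. The difference was 0.39 (SE 0.116, 1.31-fold; unadjusted p 0.00477 and adjusted p 0.712 in limma).

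Mrpl20, homologue of a bacterial protein needed early in large-subunit assembly, had the largest difference, 0.40 (SE 0.153). Its levels were 7.30, 7.07, 7.12, 7.27 and 6.54 in control and 7.30, 7.21, 7.81, 7.67 and 7.31 in carnitine mice. Control mouse 5 was the lowest by far, and control mice 1 and 4 reached into the carnitine range. The unadjusted p was 0.0202 and the adjusted p 0.712 in limma.

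On the small-subunit side, Mrps2, homologue of a bacterial small-subunit protein, had levels of 7.12, 7.59, 7.48, 7.65 and 7.40 in control and 7.69, 7.70, 7.62, 7.92 and 7.64 in carnitine mice. Only control mouse 4 reached into the carnitine range. The difference was 0.27 (SE 0.107, adjusted p 0.712 in limma). Mrps2 did not follow the other genes from mouse to mouse, as described below.

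Mrps18c, 1 of 3 related genes named for a single bacterial protein, had levels of 6.57, 6.69, 6.73, 6.55 and 5.86 in control and 6.79, 7.03, 6.87, 6.90 and 6.52 in carnitine mice. Carnitine mouse 5 lay below 4 of the controls, and control mouse 5 lay below all others. The difference was 0.34 (SE 0.153, adjusted p 0.712 in limma), and a dimmer probe set of Mrps18c gave 0.014. Its relatives Mrps18b and Mrps18a differed by 0.14 (SE 0.128) and −0.01 (SE 0.119). Without control mouse 5 the difference was 0.19 in Mrps18c and 0.02 in Mrps18b.

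Further members of the higher side were Mrpl36 (0.30, SE 0.141), Mrpl54 (0.36, SE 0.18) and Mrps27 (0.23, SE 0.116), whose product is a pentatricopeptide repeat protein that binds RNA. The Mrpl54 values ran from 7.69 to 8.91 in control and from 8.67 to 8.88 in carnitine, so its spread lay in the controls. Without control mouse 5 the difference was 0.17 in Mrpl54 and 0.14 in Mrps27, and the mean of probe sets gave 0.18 for Mrpl36. Mrpl12, whose product also binds the mitochondrial RNA polymerase, differed by 0.06 (SE 0.118), and Mrps30 by 0.14 (SE 0.115). With each mouse left out in turn, Mrpl12 ran from 0.001 to 0.14 and Mrps30 from 0.08 to 0.21. For Mrpl12 and for 2 more of the 9 members with another single-symbol probe set, Mrpl10 and Mrps17, that dimmer probe set had a difference of the opposite sign.

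Only 8 genes had a negative difference, all small. Mrpl40, a large-subunit protein found only in mitochondria, had the largest, with levels of 7.96, 7.77, 8.06, 7.71 and 8.11 in control and 7.74, 7.79, 7.68, 7.73 and 7.84 in carnitine mice. Control mouse 5 was the highest of all 10 for this gene, unlike most members. Its difference was −0.17 (SE 0.0941, adjusted p 0.721 in limma). Mrpl46 differed by −0.14 (SE 0.0973), Mrpl14, which lies on the face of the large subunit turned to the small one, by −0.11 (SE 0.15), and Mrps26 by −0.09 (SE 0.113). With each mouse left out in turn, Mrpl14 ran from −0.19 to −0.0035 and Mrps26 from −0.17 to −0.0095. The other 4 were Mrps12, homologue of a decoding-centre protein, Mrps36, Mrps18a and Mrps25, with −0.008, −0.008, −0.006 and −0.004. The direction of these 4 turned under median centring.

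**Figure D3:**
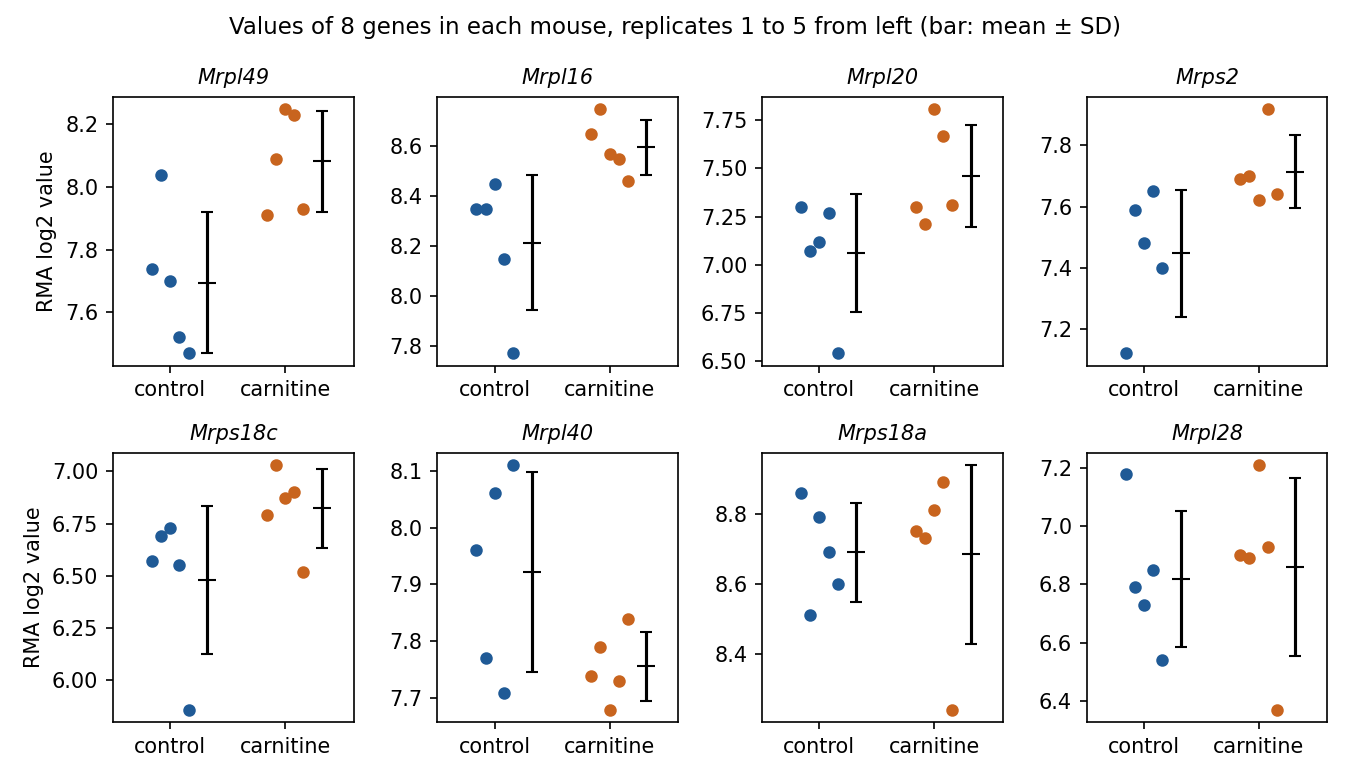
Log2 level (y axis) of 8 of the genes in each mouse, control and carnitine apart, with bars for the mean ± SD and replicates 1 to 5 from left to right. Mrpl16 is the member whose diets do not overlap, and control mouse 5 is lowest in Mrpl20 and Mrps18c and highest in Mrpl40.

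Spread within a diet was greatest in Mrpl42, Mrpl54, Mrpl32 and Mrpl20, with residual SDs of 0.52, 0.35, 0.33 and 0.29. Mrpl42, a large-subunit protein found only in mitochondria, had levels of 9.35, 8.98, 9.12, 8.96 and 7.56 in control and 9.28, 9.14, 9.41, 9.17 and 8.92 in carnitine mice. Apart from control mouse 5, the controls lay within the carnitine range, and the difference was 0.39 with an SE of 0.254. Mrpl32, whose product is trimmed by the mitochondrial m-AAA protease before it enters the ribosome, was 6.3 in control mouse 5 and between 7.17 and 7.38 in the other controls.

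The second comparison relates the same genes to Myh7, mouse by mouse. Myh7 was 11.29, 10.2, 10.75, 10.88 and 10.3 in control and 9.28, 7.93, 10.73, 10.94 and 6.36 in carnitine mice. Carnitine mice 1, 2 and 5 lay below all controls, and carnitine mice 3 and 4 among them. The means were 10.68 ± 0.44 and 9.05 ± 1.93 (SD, n = 5 per diet), a difference of −1.64 (SE 0.667, adjusted p 0.712 in limma). The diet differences of Myh7 and of most mitochondrial ribosomal protein genes thus had opposite signs.

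Over the 10 mice the mean level of the 71 genes correlated weakly with Myh7 (Pearson r 0.2, Spearman rho 0.47), and r was 0.21 without carnitine mice 2 and 5, the 2 mice farthest from the median Myh7 value. After the diet means were subtracted, r was 0.57 and rho 0.77, and without those 2 mice 0.48 and 0.45. Without control mouse 5, r was 0.52 over all mice and 0.84 after subtraction of the diet means. Without carnitine mouse 5, r over all mice was 0.01. These are descriptions without a p, since the genes were chosen with results known, and each point takes both values from the same array. For the large-subunit genes r within diets was 0.6 and for the small-subunit genes 0.51.

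**Figure D4:**
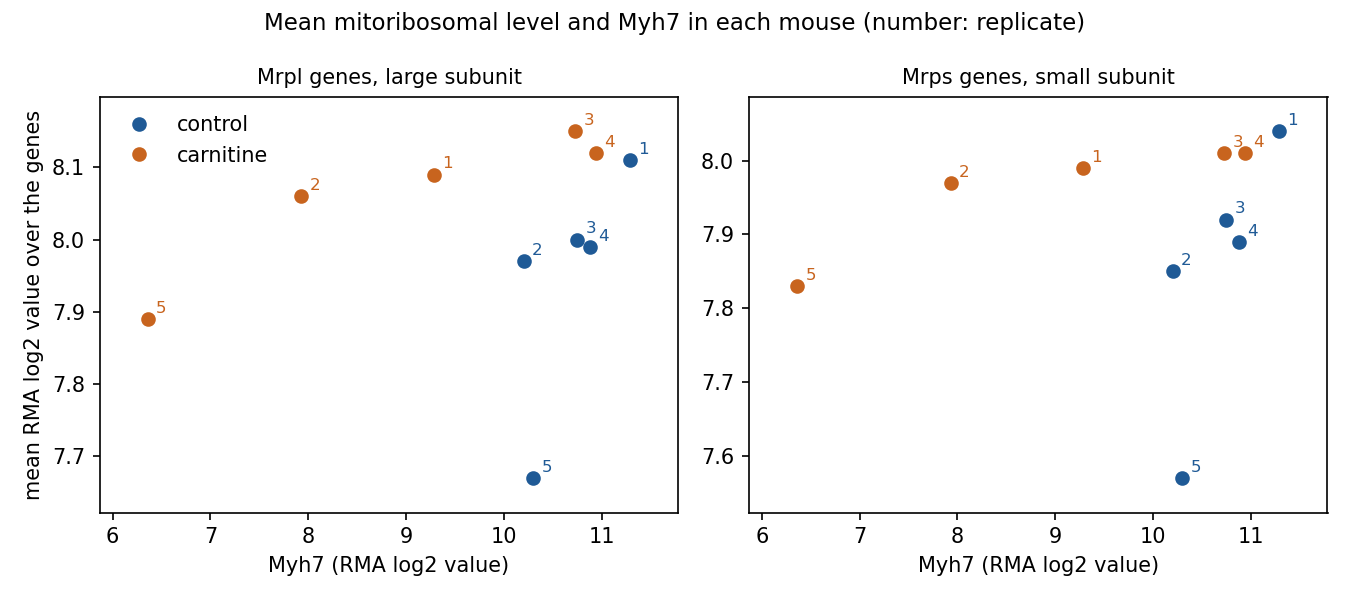
Mean log2 level over the 43 Mrpl genes (left, y axis) and the 28 Mrps genes (right, y axis) against the Myh7 log2 level (x axis), with a numbered point for each mouse and a colour for each diet. Control mouse 5, at 7.67 and 7.57, lies below the other mice, and carnitine mouse 5, with the lowest Myh7 of 6.36, has the lowest carnitine means, 7.89 and 7.83.

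Within diets, 64 of the 71 genes (90.1%) had a positive slope on Myh7, the change in the gene's log2 level per log2 unit of Myh7, against 51.0% of all genes. The median slope was 0.057, against 0.001 over all genes, and single slopes ran from −0.05 to 0.15. None of the 71 passed an adjusted p of 0.05 in limma, where 0.0586% of all genes did, and the smallest adjusted p was 0.541. An unadjusted p below 0.05 with a positive slope was found for 13 of the 71 (18.3%), against 2.71% of all genes, and with a negative slope for 0, against 2.64% of all genes. Of 12928 genes above the median probe set level, 529 had such a p with a positive slope and 474 with a negative one. The count of 13 was 20 without control mouse 5, 7 without carnitine mouse 3 and 1 without carnitine mouse 5, and it was 7 after median centring and 21 with array weights. The share of all genes with such a p in these settings is not given here. Over all genes 13 slopes passed the adjusted threshold, and 15, 7, 6, 11 and 34 did in these settings, in the same order. As a scale for these slopes, the slow-fibre genes Atp2a2, which encodes the calcium pump of slow fibres, and Tnnc1, slow troponin C, had slopes of 0.693 and 0.839, with an adjusted p in limma of 3.13e-08 for Atp2a2. Over the 7 listed slow-fibre genes other than Myh7 the slopes ran from 0.06 to 0.84, with a median of 0.69.

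By symbol, 37 of 43 Mrpl genes (median 0.062, 11 with an unadjusted p below 0.05) and 27 of 28 Mrps genes (median 0.052, 2 with such a p) had positive slopes. The 2 Mrps genes were Mrps18a and Mrps30, which lie in the large subunit by structure. With proteins placed by structure, all 13 belonged to the large subunit, while the median slopes were 0.063 for the large and 0.051 for the small subunit. Among the 25 small-subunit genes all 25 slopes were positive and 0 had such a p. A difference between the subunits in these slopes was not tested.

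Mrps18a had the smallest p, with levels of 8.86, 8.51, 8.79, 8.69 and 8.60 in control and 8.75, 8.73, 8.81, 8.89 and 8.24 in carnitine mice. In both diets the mouse with the lowest Myh7 had its lowest value, control mouse 2 and carnitine mouse 5. Its slope was 0.127 (SE 0.0343, unadjusted p 0.00261 and adjusted p 0.541 in limma), while its diet difference was near 0. Mrpl34, a homologue of a bacterial large-subunit protein, had levels of 8.44, 8.38, 8.27, 8.58 and 8.25 in control and 8.42, 8.32, 8.59, 8.63 and 8.13 in carnitine mice. Its carnitine values followed the order of Myh7, and its slope was 0.108 (SE 0.0324, adjusted p 0.573 in limma).

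Mrpl28 had the largest slope, 0.15 (SE 0.0451, adjusted p 0.573 in limma). Its levels were 7.18, 6.79, 6.73, 6.85 and 6.54 in control and 6.90, 6.89, 7.21, 6.93 and 6.37 in carnitine mice, with the highest control in the mouse of highest Myh7 and the lowest carnitine value in the mouse of lowest Myh7. By p the next were Mrpl36 (slope 0.128, SE 0.047), Mrpl2 (slope 0.114, SE 0.0437), homologue of a protein of the peptidyl transferase region, and Mrpl21 (slope 0.088, SE 0.0346). Without carnitine mouse 5 the slopes of Mrps18a and Mrpl2 were both 0.07, and the mean of probe sets gave 0.07 for Mrpl36. The other 7 of the 13 were Mrpl12, Mrpl20, Mrpl14, Mrpl37, Mrpl4, Mrps30 and Mrpl58, whose product is a peptidyl-tRNA hydrolase built into the ribosome. Negative slopes were small, with −0.0463 (SE 0.0534) for Mrps36 and −0.0288 (SE 0.0378) for Mrpl40.

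**Figure D5:**
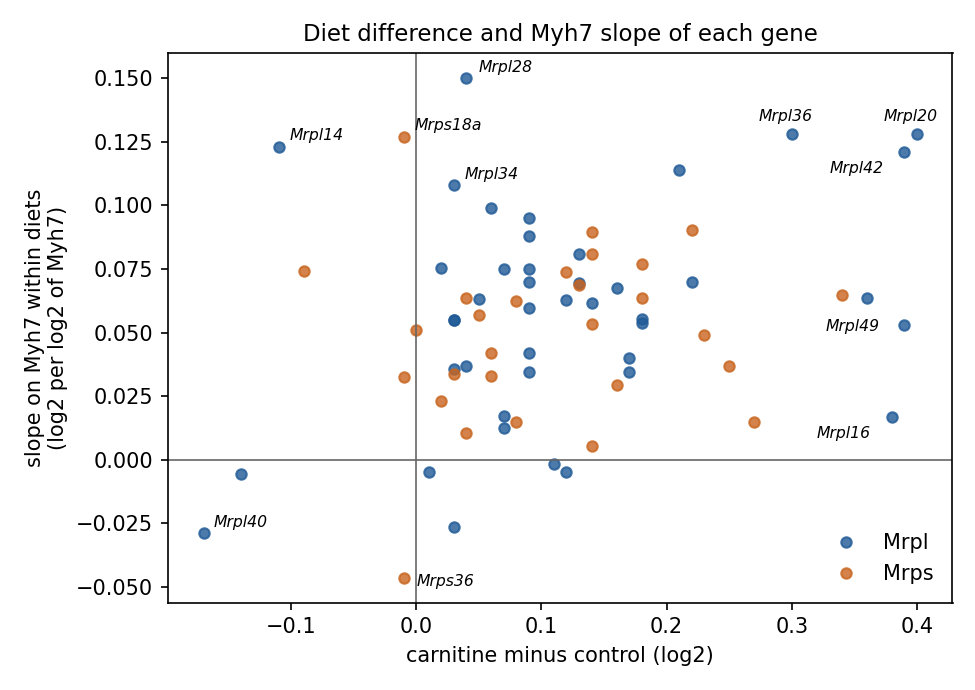
Slope on Myh7 within diets (y axis, log2 per log2) against the carnitine minus control difference (x axis, log2) for each of the 71 genes. Mrpl28, with the largest slope, and Mrps18a, with the smallest slope p, have differences of 0.04 and −0.01, and Mrpl16 and Mrpl49 have differences of 0.38 and 0.39 with slopes of 0.0169 and 0.0531.

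The slope was steeper in the controls, with a median of 0.26 in control and 0.04 in carnitine mice. The Myh7 range was narrower in the controls, 10.2 to 11.29, than in the carnitine mice. In a model with its own slope for each diet, 0 of the 71 genes passed an adjusted p of 0.05 for the difference in slope in limma (smallest adjusted p 0.749, and 0% of all genes), and 11 had an unadjusted p below 0.05 (15.5%), against 5.15% of all genes. Of the 12929 genes above the median probe set level, 778 had such a p. Among the 71 genes Mrpl14 had the smallest, with slopes of 0.68 in control and 0.09 in carnitine mice. Without control mouse 5 the median control slope was 0.13 and the count was 5, for which no share of all genes is given here.

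With Myh7 as a further term in the diet model, a fit added after the data were seen, the median diet difference was 0.21, 67 genes were positive, against 47.8% of all genes, and 20 had an unadjusted p below 0.05 on the higher side, against 3.25% of all genes. None of the 71 passed the adjusted threshold in limma, and 0% of all genes did. Myh7 itself differed between the diets on average, so this value compares mice at Myh7 levels that few mice of both diets shared.

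Most of the 71 genes moved together from mouse to mouse. After diet means were subtracted, the median correlation of a gene with the mean of the other members was 0.79, and 57 genes had a value above 0.5. Genes that are no members had a median of −0.1 with 18.9% above 0.5, and those above the median probe set level 0.16 with 29.8%. Without control mouse 5 the median was 0.66 with 47 genes above 0.5, against 0.02 and 17.2% for genes above that level. After cyclic loess the median of the members was 0.61 with 44 genes above 0.5, and no value for other genes is given here. The range ran from −0.49 in Mrpl40 to 0.98 in Mrpl51, and Mrpl40, Mrpl27, Mrps2 and Mrpl22 were below 0. All values share the same 10 arrays and so the same array effects.

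The genes outside the list most like its mean after subtraction of diet means, over the 10 mice, were Supv3l1, Clpb, Amacr, Mcur1, 2300009A05Rik and Bola3, all with r of 0.98. Supv3l1 encodes a mitochondrial RNA helicase, Clpb a disaggregase of the intermembrane space, Amacr a racemase of branched fatty acids, Mcur1 a regulator of calcium uptake and Bola3 a factor for iron-sulfur clusters. Supv3l1 had levels of 8.21, 7.96, 8.01, 7.98 and 7.63 in control and 8.11, 8.08, 8.18, 8.22 and 7.86 in carnitine mice, with control mouse 5 lowest and carnitine mouse 5 next. Its diet difference was 0.13 (SE 0.11). Without control mouse 5 the 6 correlations ran from 0.92 to 0.98.

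Other genes of mitochondrial translation were counted by list, and 0 in these lists passed the adjusted threshold in limma. Of the 7 listed mitoribosomal proteins with other symbols, the 3 measured, Dap3, Ptcd3 and Gadd45gip1, differed by 0.10, 0.10 and 0.07. Of 28 measured genes for ribosome assembly, 19 were positive (median 0.065), with 0.25 (SE 0.105) for Noa1, a GTPase of small-subunit assembly, and 0.23 (SE 0.113) for Mpv17l2. Of 14 translation factors, 13 were positive (median 0.121), with 0.20 (SE 0.086) for Taco1, the activator of cytochrome oxidase subunit translation. Of 19 aminoacyl-tRNA synthetase and amidotransferase genes, 17 were positive (median 0.098), with 0.17 (SE 0.0958) for Gatb and 0.15 (SE 0.0893) for Mars2. Of 23 genes for maintenance and transcription of mitochondrial DNA, 18 were positive (median 0.096) and 5 negative. Mterf1b, with the smallest unadjusted p of this list, differed by −0.23 (SE 0.114) at a mean level of 2.86, where signals are weak. Next by p were the transcription factor gene Tfb2m (0.22, SE 0.11) and the helicase gene Twnk (0.18, SE 0.0903). Unadjusted p values below 0.05 in limma were found for 1 of the 28 assembly genes, Noa1, for 1 of the 14 translation factors, Taco1, and for 0 in the other lists. Over all genes 3.14% had such a p on the higher side and 3.83% on the lower. The positive shares were 67.9% for assembly, 92.9% for translation factors, 89.5% for synthetases and amidotransferases and 78.3% for the mitochondrial DNA list. Of all genes 47.5% were positive, and of those above the median probe set level 62.5%. Control mouse 5 had the lowest value of all mice in 11 of the 14 translation factors (78.6%) and 12 of the 28 assembly genes (42.9%). The shares were 22.5% of all genes and 35.7% of those above that level.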

How the data were processed

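Gastrocnemius RNA from 10 mice, 5 per diet, was hybridised to 1 array per mouse. The deposited values are log2 levels with 2 decimals, made with RMA in Affymetrix Expression Console per the submitters' processing notes (program version not given in the sources used here). This method puts arrays on a common scale and compresses dim levels, so changes in total RNA cannot be seen. Of 34390 probe sets, 23521 carried 1 symbol, 1814 several, and 9055 were not listed.

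Diets were compared over 22180 genes with limma 3.58.1 (R 4.3.3, lmFit and eBayes with trend) and Benjamini-Hochberg adjustment over all of them. Further models added the Myh7 level or a slope per diet. On simulated data with 22180 genes, 200 of them changed, the fit recovered 67.0% of 1.5-fold and 94.4% of 2-fold changes. Of its calls 3.99% were false. Each gene was drawn independently, without the array effects that real genes share, so these shares are not the power of this experiment. Alternatives were a replicate block, a filter on dim genes, no trend, array weights, median centring, cyclic loess, the mean of probe sets, subunits by structure, the slow-fibre marker mean, Myh7 as a term and each mouse left out.

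The members and lists were chosen with earlier results of these data known, so no list was tested as a whole. Named members were those with the smallest p per direction of difference and of slope, the largest spread, diets without overlap, or a special role. The text names fewer of them, and other members it names, which complete a count or show an extreme, were chosen after their values were seen. Promoters were matched to RefSeq (GRCm38.p6) by symbol.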

Additional observations from a re-analysis of the deposited data

Results flagged for a closer look

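Within a diet, 58 groups of 5 values were screened for a mouse whose gap to the nearest other exceeded 0.71 of the whole range, and 8 stood out. Chance gives about 1 in 20 for groups picked without regard to their values, but many of these genes were picked for their spread, difference or slope and all share the same arrays, so that rate is no measure for them. Control mouse 5 was low in 3 of them: 7.56 in Mrpl42 against 8.96 to 9.35, 6.3 in Mrpl32 against 7.17 to 7.38, and 5.86 in Mrps18c against 6.55 to 6.73 in the other controls. Carnitine mouse 5 was low in 4: 7.75 in Mrps26 against 8.1 to 8.17, 8.24 in Mrps18a against 8.73 to 8.89, 8.02 in Mrpl2 against 8.46 to 8.55, and 7.83 in the mean over the small-subunit genes against 7.97 to 8.01 in the other carnitine mice. Carnitine mouse 4 was high in Mrps2, at 7.92 against 7.62 to 7.7.

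Carnitine mouse 5 also had the lowest Myh7 level, 6.36, and control mouse 5 the narrowest array range. The part of either in these values was not tested.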

How the results depend on the processing

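Deviations from the diet means correlated at 0.24, 0.01, −0.13, 0.23 and 0.1 between the mice numbered 1 to 5 in both diets. With carnitine mice of other numbers, the highest values for control mice 1 to 5 were 0.07, 0.28, 0.15, 0.18 and 0.25. The same number thus correlated highest for mice 1 and 4 only. Not every pair deviated together, and no label pairs the mice, so the numbers were not taken as pairs. The count of 0 genes past the adjusted threshold in limma held under all 18 alternatives for the diet and all 18 for the Myh7 slope, and the median diet difference stayed positive, between 0.026 and 0.21. The unadjusted diet count of 5 was 10 with the replicate block, 20 with Myh7 as a term and 2 to 11 with each mouse left out. The count of positive differences was 41 under cyclic loess. The median Myh7 slope was −0.005 with the replicate block and 0.099 with the slow-fibre marker mean, and its unadjusted count of 13 was 0 with the block, 21 with array weights, 7 after median centring and 1 to 20 with each mouse left out. The count of 11 slopes that differed between diets was 5 without control mouse 5. For these unadjusted counts the share of all genes is given only for Myh7 as a term, 3.25%. The correlation of the mean level with Myh7 was 0.57 after subtraction of diet means. Near-zero differences turned. Median centring gave 0.04 for Mrps12, Mrps36 and Mrps18a and 0.05 for Mrps25. Cyclic loess gave 0.06 for Mrps36 and −0.02 for Mrpl12, and array weights 0.00045 for Mrps18a. Myh7 as a term gave 0.04 for Mrps26, 0.09 for Mrpl14, 0.05 for Mrps12, 0.2 for Mrps18a and 0.08 for Mrps25. With each mouse left out, Mrps12 ran from −0.05 to 0.04, Mrps36 from −0.12 to 0.06, Mrps18a from −0.06 to 0.1 and Mrps25 from −0.06 to 0.04. The Mrpl40 slope was 0.0098 with the block. The causes were not tested. The number of arrays limits the precision.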

Other observations

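Of the 9 members with another single-symbol probe set, 6 had the same sign of the diet difference in both and 3 did not: Mrpl10 (0.086 and −0.15), Mrpl12 (0.06 and −0.042) and Mrps17 (0.122 and −0.084). The second probe sets averaged 5.89, 6.2 and 5.49, where the kept ones averaged 8.65, 7.87 and 7.84. Mrps16 had 0.132 and 0.276, with averages of 7.71 and 7.33, and Mrps18b had 0.142 and 0.002, with averages of 8.3 and 8.07.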
